A study of Caenorhabditis elegans with 16 samples.

Results

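Caenorhabditis elegans has 7 genes for soluble guanylyl cyclases, gcy-31, gcy-32, gcy-33, gcy-34, gcy-35, gcy-36 and gcy-37, and their level was followed here through every annotated cell class of the first-stage larva. The genes were chosen by name, and they are 7 of the 18570 genes in the deposited table. Soluble guanylyl cyclases make cyclic GMP in the cytosol and carry a heme-binding domain. In the worm they act as sensors of molecular oxygen, and the cyclic GMP they make opens cation channels in sensory neurons. The BAG neurons of the head are known to respond to falling oxygen and carbon dioxide. URX in the head, AQR in the body cavity of the head and PQR in the tail are known to respond to rising oxygen, and these 3 classes reach into the fluid-filled body cavity. In reporter studies gcy-31 and gcy-33 are known from BAG, and gcy-32, gcy-34, gcy-35, gcy-36 and gcy-37 from URX, AQR and PQR.

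The data are single-cell RNA counts from hermaphrodites labelled wild type, in 16 libraries of 13 groups, made with the 10x Genomics platform from cells sorted by fluorescent reporters. Each group was defined by the reporters of its strain or strains, and only the pan-neuronal, the flp-7 and the oldest P-lineage group had 2 libraries. Ages ran from 11 to 24 h after hatching. BAG, or URX, AQR and PQR together, reached 10 cells in 9 libraries. The single-strain libraries among these were pan-neuronal replicates 1 and 2 (otIs355, a nuclear rab-3 promoter reporter, 11.5 to 14.5 h), the sensory library (syIs764, tax-4 and ocr-2 promoters driving GFP, 14 to 16 h), the unc-86 library (kyIs262, unc-86::myr-GFP with odr-1::RFP, 12 to 15 h) and the eat-4 library (otIs292, eat-4::mCherry with rol-6(su1006), 12 to 15 h). The command interneuron library (otIs708 with sra-11 and inx-6 promoter reporters, and rhIs2 with glr-1::GFP, 12 to 16 h) and flp-7 replicate 2 (ynIs66, flp-7p::GFP, 14 to 17 h) were also from 1 strain. The remaining 2 libraries mixed several strains. One held reporters of acr-2 (juIs14, with lin-15(+)), unc-4c (wdIs90, with ceh-22::GFP) and ceh-2 (syIs54, with unc-119(+) and unc-119(ed4)) at 13 to 17 h. The other held reporters of nlp-13 (otIs742), unc-47 (oxIs12, in a lin-15B&lin-15A(n765) strain), ceh-10 (hpIs202) and mec-3 (uIs152) at 13.5 to 17 h, the first 3 with lin-15(+). Cells of the mixed libraries were not assigned to a strain here. The 4 P-lineage libraries (UD381, 2 phlh-3 promoter reporters with odr-1::gfp, 11 to 14 h, 15.5 to 18.5 h and 21 to 24 h, the last labelled L1/L2) also enter the levels pooled by class. So do flp-7 replicate 1 (ynIs66, 14 to 17 h) and a pair of libraries of ceh-34 and unc-4 reporter cells (14 to 17 h). Of this pair, 1 was of live and 1 of methanol-fixed cells, and both pooled the same 2 strains. These were stIs10447 (ceh-34p::HIS-24::mCherry with unc-119(+)) with evIs111 (F25B3.3::GFP with dpy-20(+)), and wdIs90 (unc-4c::GFP) with ufIs26 (unc-4::mCherry). Reporter, strain and age changed together between libraries, so their parts in a difference between libraries cannot be told apart.

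The table held 151415 cells and 261228334 unique molecular identifiers (UMIs), with 3121 to 17326 cells and a median of 227 to 3949 UMIs per cell in a library. A barcode found in more than 1 library was carried by 5544 cells. The authors' annotation gave 610 BAG, 326 URX, 1035 AQR and 1011 PQR cells, with medians of 818.5, 1308, 1269 and 1173 UMIs per cell. Levels are given as CPM, the UMIs of a gene per 1000000 UMIs summed over the cells of a class. Compared classes were assigned by the authors from the same counts, so the p-values below measure how regular a difference was over libraries.

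The classes carried most of their markers. BAG held 80397 CPM of flp-17, a FMRFamide-like peptide gene of BAG, with 912 CPM of gcy-9 and 1097 CPM of ets-5, and 4 of its 6 markers were above other neurons. The BAG markers flp-13 and flp-19 were below, at 366 against 1094 CPM and 787 against 2253 CPM. flp-19 was at 4674 CPM in URX. In URX 5 of the 6 URX, AQR and PQR markers were above other neurons, and in AQR, in PQR and also in BAG 4 of 6. flp-10 was on both lists, at 2054 CPM in BAG and 34.3 CPM in URX, against 46.8 CPM in other neurons. flp-8, a peptide gene, was at 139753 CPM in URX, 72.6 CPM in AQR and 69.8 CPM in PQR. The 5 body wall muscle markers summed to 8919 CPM in BAG, 20158 in URX, 56276 in AQR and 37759 in PQR, against 40206 CPM in other neurons. Nearly all of this was unc-54, a muscle myosin gene. It ran from 4.93 CPM in AQR of the eat-4 library to 242615 CPM in PQR of pan-neuronal replicate 2. myo-3 stayed at or under 18.6 CPM in the 4 classes and was at 0 in URX, and mlc-1, mlc-2 and tnt-2 stayed at or under 14.9 CPM. In annotated body wall muscle, unc-54 was at 3868 CPM, below its pooled level in each of the 4 classes. There myo-3 was at 1499 CPM and mlc-2 at 5827 CPM. Of the 5 epidermal markers, rol-6 was at 2306 CPM in BAG, 9.15 in URX, 293 in AQR and 675 in PQR. dpy-7 was at 0 in BAG and URX. The eat-4 strain carries rol-6(su1006) in its transgene, and its library held 217 BAG, 2 URX, 200 AQR and 197 PQR cells. The glial markers in the table, 3 of the 4 chosen, summed to 141 CPM in BAG, 405 in URX, 66.6 in AQR and 58.4 in PQR. The pharyngeal muscle and intestine lists summed to at most 19.5 CPM in each of the 4 classes, and the 4 AFD markers to at most 9.28 CPM. The 5 general neuron markers summed to 5389 CPM in BAG, 3532 in URX, 6089 in AQR and 5076 in PQR, against 4215 CPM in other neurons. The part of these transcripts in the levels below was not tested.

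Across the family gcy-31 was higher in BAG, and gcy-32, gcy-34, gcy-35, gcy-36 and gcy-37 were higher in URX, AQR and PQR. gcy-33 was present in BAG, yet it was higher in URX, AQR and PQR in each of the 6 libraries with at least 10 cells of both. Of all UMIs of gcy-33 in the table, 66591 in number, 95% lay in URX, AQR and PQR and 2.49% in BAG. Of the 444 UMIs of gcy-31, 25.7% lay in BAG and 2.70% in URX, AQR and PQR.

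**Figure D1:**
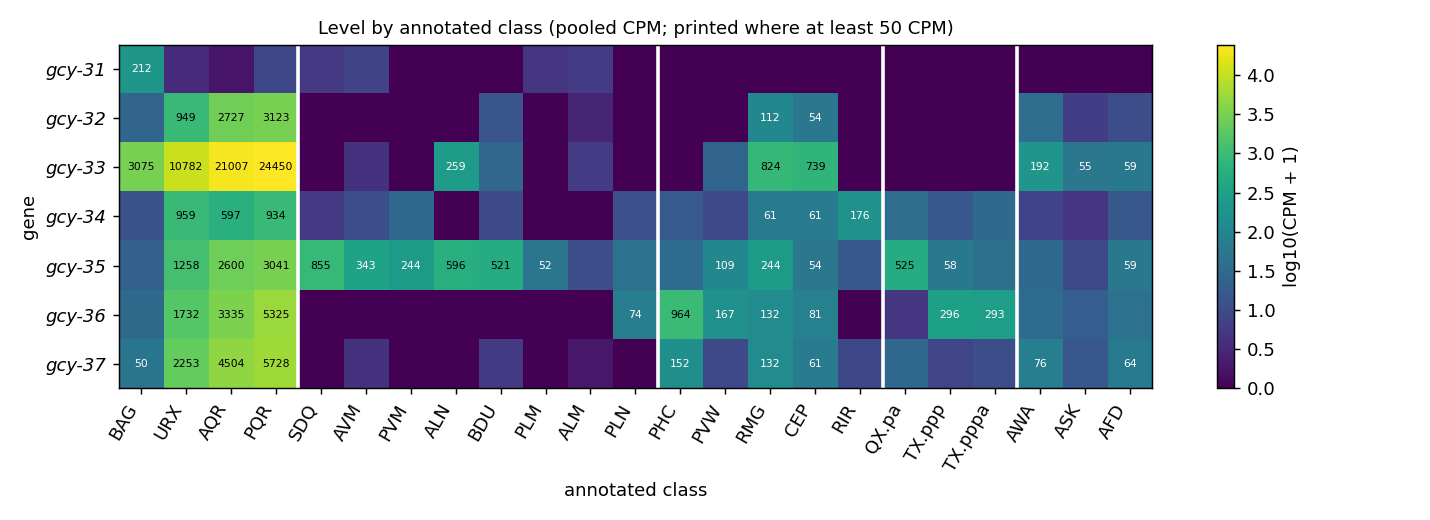
Level of the 7 genes (rows) in 23 annotated classes (columns), as the pooled CPM on a log10(CPM + 1) colour scale, with the CPM printed from 50 up. Only gcy-33 is bright both in BAG and in URX, AQR and PQR, gcy-31 is printed in BAG alone among these classes, and gcy-35 runs on through SDQ, AVM, PVM, ALN and BDU.

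gcy-33 was read in BAG at 2726 CPM in the eat-4 library, 3894 and 2507 CPM in pan-neuronal replicates 1 and 2, 3391 CPM in the sensory library, 3767 CPM in the acr-2, unc-4c and ceh-2 library and 2881 CPM in the unc-86 library. In the same libraries and the same order, URX, AQR and PQR together held 27733, 21501 and 24168, 19512, 25378 and 20140 CPM. The groups did not overlap, and URX, AQR and PQR were higher in 6 of 6 libraries, by 5.52 to 10.2 times with a median of 6.86. The mean was 3194 ± 574 CPM in BAG and 23072 ± 3224 CPM in URX, AQR and PQR (SD, n = 6 libraries each). With library as a block, edgeR's quasi-likelihood test gave a log2 fold change of -2.93 ± 0.37 (SE) for BAG over URX, AQR and PQR, with a Benjamini-Hochberg adjusted p of 9.5e-07. gcy-33 overlaps C52E4.7 and C52E4.12, which lie on the other strand and were at or under 11.4 CPM in all 4 classes.

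Single cells showed the same order. A BAG cell held a median of 2 gcy-33 UMIs, a URX cell 11, an AQR cell 19 and a PQR cell 27, and the highest cell held 60, 82, 185 and 131 UMIs in these classes. Cells with at least 500 UMIs were thinned to 500 to put the classes at equal depth, which left out 200 BAG, 65 URX, 191 AQR and 136 PQR cells. After thinning, gcy-33 was detected in 68.5% of 410 BAG cells, with an exact Clopper-Pearson interval of 63.8 to 73.0%. It was detected in 95.4% of 261 URX cells, 98.9% of 844 AQR cells and 98.1% of 875 PQR cells. Before thinning the shares were 72.3% in BAG, 92.3% in URX, 96.3% in AQR and 97.8% in PQR. In AFD, a thermosensory neuron not known for soluble cyclases, the thinned share was 3.85% of 156 cells, and in the ciliated neuron ASK it was 0.729% of 1372 cells. These intervals cover counting error only.

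The gcy-33 of BAG came with almost none of the other 5 genes. Its UMIs per UMI of gcy-37 came to 61.3 in BAG (exact interval 42.0 to 93.4), against 4.78 in URX, 4.66 in AQR and 4.27 in PQR. In the libraries, the URX, AQR and PQR ratio ran from 3.56 to 7.74, and the ratio in BAG was 50.1 in the eat-4 library and 50.5 in the sensory library. The 27 UMIs of gcy-37 in BAG lay in 4 of the 610 cells, all with 2477 to 2586 UMIs. Those 4 cells held gcy-33 at 12794 CPM, gcy-37 at 2678 CPM and gcy-36 at 1289 CPM, and no gcy-31. The other 606 BAG cells, a split made after the values were seen, held gcy-33 at 2890 CPM and gcy-31 at 216 CPM, and none of gcy-32, gcy-34, gcy-35 and gcy-36 reached 8 CPM in them.

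**Figure D2:**
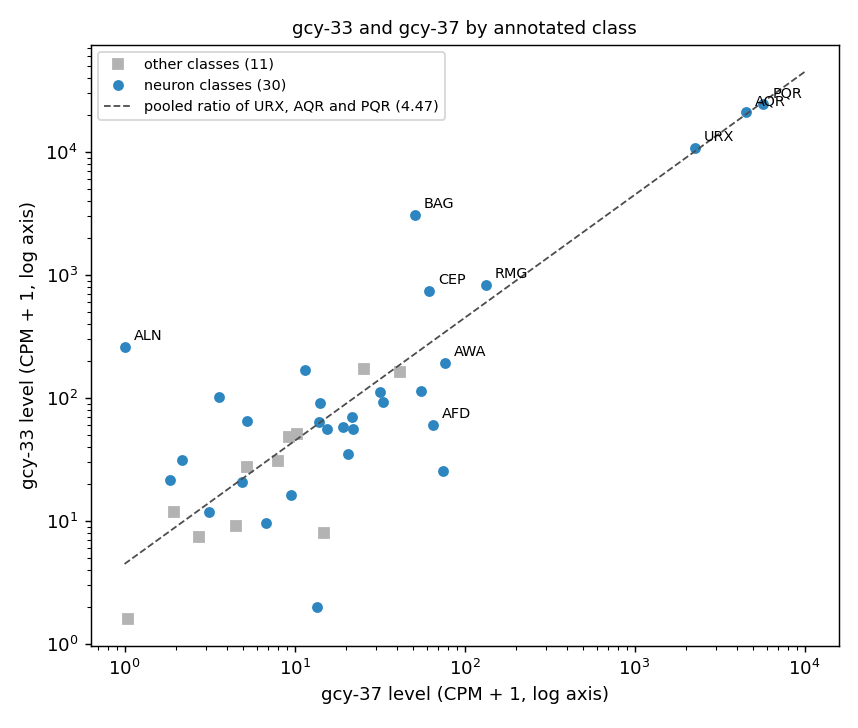
Level of gcy-33 (vertical axis) against gcy-37 (horizontal axis), both as CPM + 1 on log axes, for each annotated class with at least 10 UMIs of the 2 genes together, which were 30 neuron classes and 11 others. URX, AQR and PQR lie on the dashed line of their pooled ratio of 4.47, and BAG lies above it.

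gcy-31, known to be needed for the response of BAG to falling oxygen, was read in BAG at 173 CPM in the eat-4 library, 0 and 241 CPM in pan-neuronal replicates 1 and 2, 251 CPM in the sensory library, 184 CPM in the acr-2, unc-4c and ceh-2 library and 258 CPM in the unc-86 library. In URX, AQR and PQR together, the same 6 libraries held at most 4.98 CPM. BAG was higher in 5 of the 6 libraries, and the exception was pan-neuronal replicate 1, where neither side had a UMI of gcy-31. Its 22 BAG cells held 9246 UMIs, so a count of 0 there allows up to 324 CPM, and the depth cannot tell it from the other libraries. gcy-31 did not pass the filter on low counts, so it was not tested in the main analysis. Without the filter, edgeR's quasi-likelihood test gave a log2 fold change of 5.92 ± 0.68 (SE) for BAG over URX, AQR and PQR, with an adjusted p of 2.2e-16, and of 6.07 ± 0.51 for BAG over other neurons, with an adjusted p of 7.7e-09.

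At class level gcy-31 reached 50 CPM and 10 UMIs, the threshold used here for a gene to be called detected, in BAG alone of the 180 classes. It stood at 212 CPM in BAG (114 UMIs, exact Poisson interval 175 to 254). A UMI was found in 103 of the 610 BAG cells, and in 9.51% of the thinned cells. In AFD and in ASK no cell had a UMI. Its UMIs lay at most 3 to a BAG cell. The next classes with more than 3 UMIs were M3, a pharyngeal motor neuron, at 32.2 CPM (9 UMIs) and ASG, an amphid sensory neuron, at 27.1 CPM (31 UMIs). ASG was above 0 in 6 of its 8 libraries. It ran from 7.71 CPM (3 UMIs) in the acr-2, unc-4c and ceh-2 library to 198 CPM (3 UMIs) in flp-7 replicate 1, and its 13 UMIs in the sensory library gave 39.1 CPM. M3 was above 0 in 4 of its 6 libraries and reached 305 CPM on 3 UMIs in the eat-4 library. Its neighbour on the same strand, glr-7, a glutamate receptor gene, was at 1.86 CPM in BAG, 143 CPM in M3 and 1.75 CPM in ASG.

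The 5 genes of URX, AQR and PQR were all near 0 in BAG. gcy-36, which is known to act with gcy-35 as an oxygen-sensing pair in URX, AQR and PQR, was in BAG at 34.6 CPM in the eat-4 library, 44.7 CPM in the sensory library and 0 in the other 4. In URX, AQR and PQR together it was at 6078 CPM in the eat-4 library, 4026 CPM in the sensory library, 3469 CPM in the unc-86 library, 3119 CPM in the acr-2, unc-4c and ceh-2 library and 1568 and 2796 CPM in pan-neuronal replicates 1 and 2. The groups did not overlap. gcy-35 averaged 15.8 ± 18.6 CPM in BAG and 2271 ± 1094 CPM in URX, AQR and PQR (SD, n = 6 libraries each). gcy-37 averaged 28.3 ± 31.6 CPM in BAG and 4687 ± 1592 CPM in URX, AQR and PQR. gcy-32 averaged 10.9 ± 17.0 CPM in BAG and 2312 ± 903 CPM in URX, AQR and PQR. gcy-34 averaged 4.63 ± 7.61 CPM in BAG and 703 ± 285 CPM in URX, AQR and PQR. For each of these 5 genes the groups did not overlap, and 3 or 4 of the 6 BAG values were exactly 0.

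In the edgeR fit of BAG against URX, AQR and PQR over 6 libraries, 59.4% of 1287 genes tested passed an adjusted p of 0.05, with 29.2% higher and 30.2% lower in BAG. The 6 of the 7 genes that passed the filter on low counts were all lower in BAG. gcy-31, higher in BAG without the filter, was not among them. gcy-32, gcy-34, gcy-35, gcy-36 and gcy-37 had enough counts for the filter only through URX, AQR and PQR. Their shared direction was therefore set by the filter and is no result beside the share of all genes. The log2 fold changes were -6.66 ± 0.48 for gcy-32, -5.86 ± 0.48 for gcy-34, -6.79 ± 0.46 for gcy-35, -7.09 ± 0.49 for gcy-36 and -6.78 ± 0.48 for gcy-37 (SE), all beyond the -2.93 of gcy-33. Their adjusted p-values lay between 1.2e-10 for gcy-35 and 1.6e-09 for gcy-34. The median over all genes tested was -0.12, and -0.43 with DESeq2 size factors in place of TMM. Of the 5 genes with the smallest p lower in BAG, gcy-35 was one, beside the peptide genes nlp-43, ins-18 and flp-7 and F58F9.10. The 5 with the smallest p higher in BAG were C30G12.10, gcy-9, C09G1.5, ets-5 and C15C7.4.

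**Figure D3:**
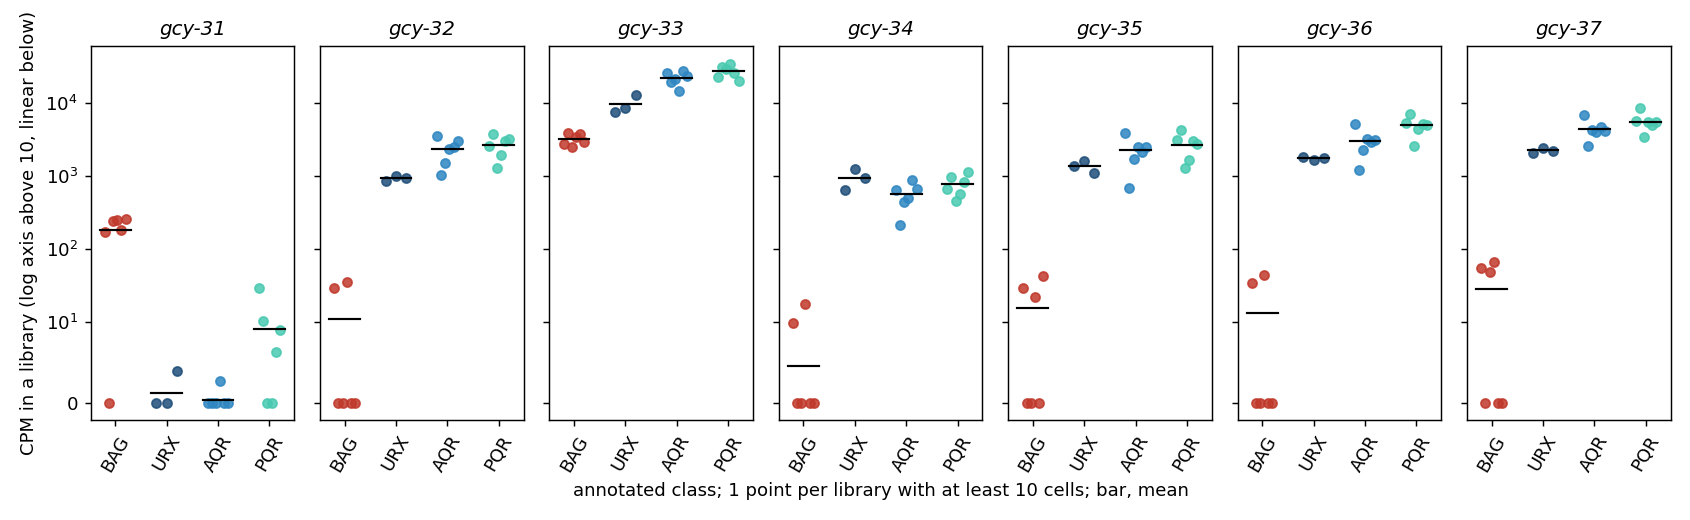
CPM of each gene in each library with at least 10 cells of the class (points), with the mean of the libraries (bar), on an axis that is logarithmic above 10 CPM and linear below. BAG has points at 0 for every gene except gcy-33, whose 6 BAG points lie between 2507 and 3894 CPM, under all points of URX, AQR and PQR.

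Against the other neurons of the same libraries, BAG carried gcy-33. In 6 libraries, 37.1% of 4827 genes tested passed the threshold, with 7.85% higher and 29.3% lower in BAG. Of the 3 members tested there, gcy-33 was higher in BAG by 6.47 ± 0.57 on the log2 scale (SE), with an adjusted p of 1.9e-13 in edgeR's quasi-likelihood test. gcy-37 also passed, with a log2 fold change of 1.66 ± 0.55 and an adjusted p of 0.0149, on the 27 UMIs in 4 cells described above. That call was lost with DESeq2 size factors, at an adjusted p of 0.0501, and without the library block, at 0.0709. gcy-35 did not pass, with a log2 fold change of 0.38 ± 0.58 and an adjusted p of 0.601.

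URX, AQR and PQR against other neurons were tested in 9 libraries, where 30% of 5997 genes passed, with 9.02% higher and 21% lower in URX, AQR and PQR. All 6 members tested were higher, with log2 fold changes of 5.86 ± 0.37 for gcy-34, 7.48 ± 0.49 for gcy-35, 9.31 ± 0.63 for gcy-36, 9.58 ± 0.64 for gcy-32, 9.93 ± 0.76 for gcy-37 and 10.50 ± 0.77 for gcy-33 (SE). Their adjusted p-values lay between 1.8e-11 and 1.7e-10 in edgeR's quasi-likelihood test. gcy-32, gcy-33, gcy-34, gcy-36 and gcy-37 had enough counts for the filter only through URX, AQR and PQR. The shared direction of these genes was therefore set by the filter and is no result beside the share of all genes. Of all calls 30.1% were higher in URX, AQR and PQR, and 19.5% with DESeq2 size factors, while gcy-33 stayed at 10.44. gcy-31 was not tested, and without the filter its log2 fold change was 0.65 ± 0.44, with an adjusted p of 0.300.

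Within URX, AQR and PQR the levels were graded. Pooled over libraries, URX, AQR and PQR held 949, 2727 and 3123 CPM of gcy-32, 10782, 21007 and 24450 CPM of gcy-33, 1258, 2600 and 3041 CPM of gcy-35, 1732, 3335 and 5325 CPM of gcy-36, and 2253, 4504 and 5728 CPM of gcy-37. The exception was gcy-34, at 959 CPM in URX, 597 CPM in AQR and 934 CPM in PQR.

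PQR and AQR had at least 10 cells together in 5 libraries. gcy-36 was higher in PQR in 5 of 5, by 1.37 to 2.19 times, with 4843 ± 1600 CPM in PQR and 2985 ± 1469 CPM in AQR (SD, n = 5 libraries each). gcy-32, gcy-34 and gcy-37 were also higher in PQR in 5 of 5, and gcy-33 and gcy-35 in 4 of 5. The ranges of the 2 classes overlapped for all 6 genes, and no test of this difference was made. URX shared only the sensory and the unc-86 library with both. In those 2, gcy-32, gcy-33, gcy-35, gcy-36 and gcy-37 were lower in URX than in AQR and in PQR. gcy-37 was 5036 and 5435 CPM in PQR and 4040 and 4111 CPM in AQR, against 2421 and 2186 CPM in URX. For gcy-34 the order differed, with 832 and 1131 CPM in PQR and 501 and 673 CPM in AQR, against 1253 and 944 CPM in URX. With 2 libraries no test was made.

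Libraries ranked alike for several genes. In AQR pan-neuronal replicate 1 was lowest for gcy-32 (1032 CPM), gcy-34 (212 CPM), gcy-35 (688 CPM), gcy-36 (1191 CPM) and gcy-37 (2566 CPM). The eat-4 library was highest for gcy-32 (3555 CPM), gcy-35 (3924 CPM), gcy-36 (5177 CPM) and gcy-37 (6868 CPM). gcy-33 did not follow, with 19445 CPM in pan-neuronal replicate 1 and 25262 CPM in the eat-4 library, so its ratio to gcy-37 over URX, AQR and PQR was 7.74 in pan-neuronal replicate 1 and 3.64 in the eat-4 library. unc-54 in AQR was at 91510 CPM in pan-neuronal replicate 1 and 4.93 CPM in the eat-4 library, and its part in these levels was not tested.

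Single cells of URX, AQR and PQR usually carried several of the 5 genes gcy-32, gcy-34, gcy-35, gcy-36 and gcy-37. At 500 UMIs per cell, all 5 were detected in 4.98% of URX, 9.12% of AQR and 18.5% of PQR cells. None was detected in 5.36% of URX, 0.592% of AQR and 0.114% of PQR cells. In BAG none was detected in 97.8% of 410 thinned cells. gcy-31 and gcy-33 were found together in 24 of the 410 BAG cells, 3 of 875 PQR cells and no thinned URX or AQR cell.

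**Figure D4:**
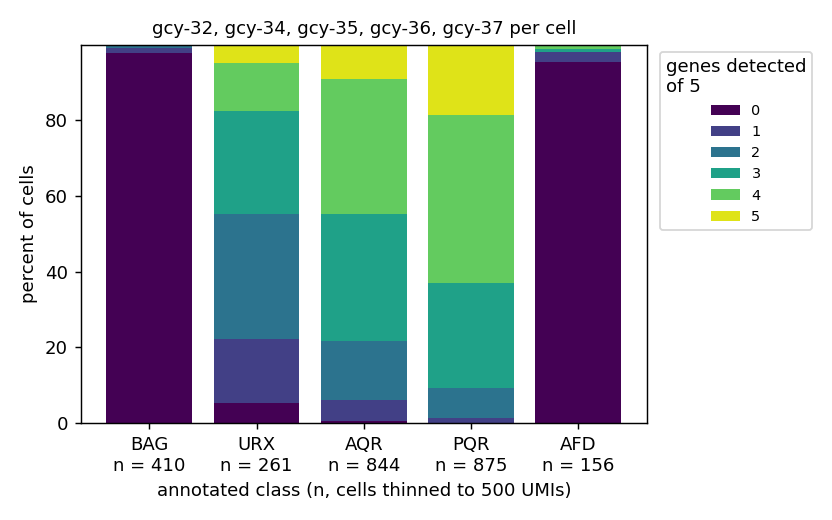
Percent of cells (vertical axis) in which 0 to 5 of the genes gcy-32, gcy-34, gcy-35, gcy-36 and gcy-37 were detected after thinning to 500 UMIs, by annotated class. The BAG bar, like that of AFD, is almost wholly the colour of 0 genes (97.8% in BAG), and the share with all 5 genes is 18.5% in PQR.

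Outside these 4 classes gcy-35 was detected in 11 further classes, and in 8 of them at least 10% of the cells had a UMI, against 0 to 4 such classes for the other members. SDQ, interneurons of the Q neuroblast lineage, stood at 855 CPM (exact Poisson interval 740 to 983), with a UMI in 120 of 261 cells. ALN, a tail neuron known to express gcy-35, was at 596 CPM on 23 UMIs, and BDU, an interneuron with a process along the body, at 521 CPM. The touch receptor neurons AVM and PVM were at 343 and 244 CPM. The touch receptor neurons ALM and PLM were lower, ALM with a UMI in 10 of 708 cells and PLM at 52.4 CPM. PLN had a UMI in 2 of 59 cells. RMG, a hub interneuron of the oxygen circuit, was at 244 CPM with a UMI in 17 of 65 cells, and PVR at 152 CPM in 13 of 97 cells. QX.pa, the progenitor annotated in the Q lineage that divides into SDQ and AVM or PVM, was at 525 CPM with a UMI in 61 of 109 cells.

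In SDQ gcy-35 was read at 1863 CPM in flp-7 replicate 2, 1233 and 649 CPM in pan-neuronal replicates 1 and 2 and 729 CPM in the unc-86 library. In BDU it was 293 and 263 CPM in pan-neuronal replicates 1 and 2 and 542 CPM in the unc-86 library. In AVM it was 373 CPM in the nlp-13, unc-47, ceh-10 and mec-3 library, 206 CPM in pan-neuronal replicate 2 (2 UMIs) and 341 CPM in the unc-86 library. In ALN it was 107 and 695 CPM in the 2 pan-neuronal libraries. SDQ lay above AVM in both libraries (pan-neuronal replicate 2 and unc-86) that held at least 10 cells of each. ALN, PLN, SDQ, AVM, PVM, ALM, PLM and BDU were taken as 1 set because reporter expression of gcy-35 is known there. A higher gcy-35 level in the set is therefore no independent result. Over 10 libraries the set was above other neurons in gcy-35 by 5.11 ± 0.47 on the log2 scale (SE). The adjusted p of 2.0e-11 in edgeR's quasi-likelihood test measures only how regular this was over libraries. RMG and PVR, where gcy-35 was also detected, stayed among the other neurons. In that comparison 27.6% of 5481 genes tested passed, with 4.45% higher and 23.2% lower. The 10 libraries included flp-7 replicate 1 and a library of live ceh-34 and unc-4 reporter cells (2 pooled strains, stIs10447 with evIs111 and wdIs90 with ufIs26, 14 to 17 h), and not the sensory library. No other member passed the filter there. SDQ, AVM and PVM held no UMI of gcy-32 or gcy-36, in 261, 213 and 161 cells.

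gcy-36 had a further site in the tail. PHC, a tail sensory neuron, held 964 CPM (interval 730 to 1249), with a UMI in 30 of 52 cells. The same cells held gcy-37 at 152 CPM, in 8 cells, and no UMI of gcy-32 or gcy-33. For 52 cells this limits the share of cells with a UMI to 6.85% (exact interval), and not the share of cells that express the gene. TX.pppa, the progenitor annotated in the T lineage that divides into PHC and PLN, was at 293 CPM (20 of 60 cells), and TX.ppp, its mother, at 296 CPM (26 of 55 cells). PVW, a tail interneuron, was at 167 CPM and PLN at 74.4 CPM. PHC and both progenitors reached 10 cells in the unc-86 library alone, at 990, 328 and 306 CPM, so these levels have no second library beside them.

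**Figure D5:**
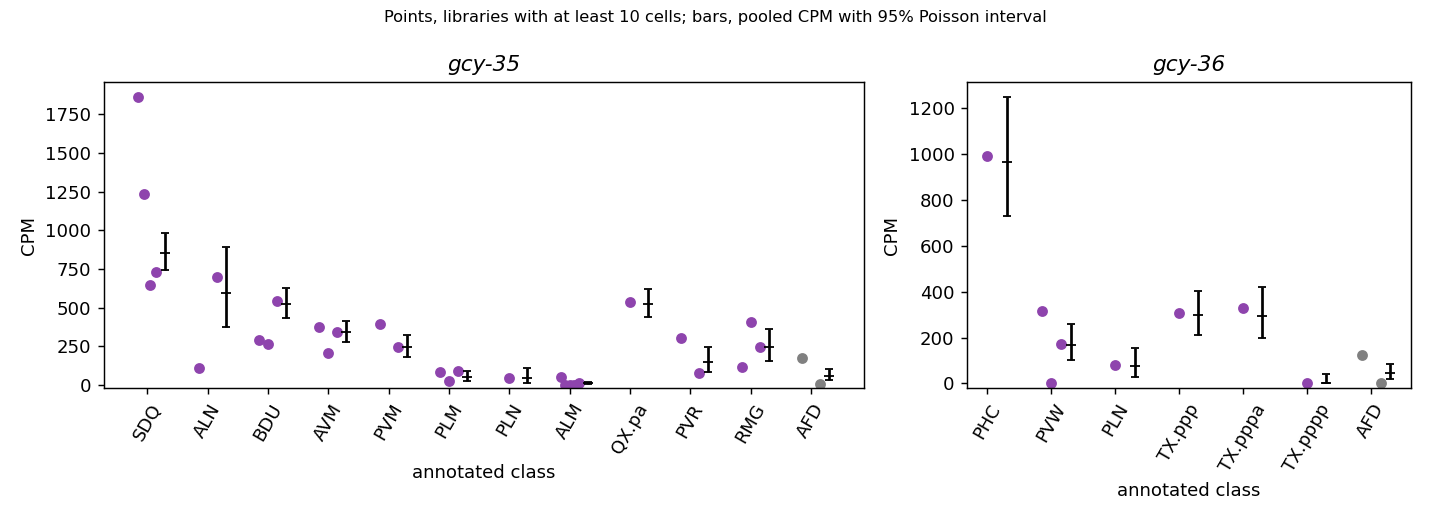
CPM of gcy-35 (left) and gcy-36 (right) in annotated classes outside URX, AQR and PQR, with 1 point per library with at least 10 cells and a bar for the pooled CPM with its exact 95% Poisson interval (AFD, grey, for comparison). SDQ is highest for gcy-35, with points from 649 to 1863 CPM, and PHC for gcy-36, with a single point at 990 CPM.

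gcy-34, a gene of the URX, AQR and PQR set, had 61.1% of its 3890 UMIs there, against 85.5 to 96.8% for gcy-32, gcy-33, gcy-35, gcy-36 and gcy-37. It was listed at 0 in 36 of the 121 other neuron classes, against 48 to 83 for the remaining 6 genes. RIR, a ring interneuron, held 176 CPM with a UMI in 20 of 154 cells, and read 233 CPM in a pan-neuronal library, 107 CPM in the acr-2, unc-4c and ceh-2 library and 222 CPM in the unc-86 library. The anal sphincter muscle held 63.5 CPM with a UMI in 20 of 185 cells. In the 4 P-lineage libraries gcy-34 had 52 to 175 UMIs and gcy-35 17 to 63, while gcy-32 and gcy-37 had none. gcy-31 had 8 to 61 UMIs in these libraries, gcy-36 0 to 33 and gcy-33 0 to 20. gcy-34 overlaps cpz-2 on the other strand, which was at or under 3.71 CPM in BAG, URX, AQR and PQR.

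gcy-33 was detected in 19 further classes, but its UMIs there lay in few cells. In 18 of the 19 under 5% of cells had a UMI. RMG, a hub interneuron of the oxygen circuit, read 824 CPM from 2 of 65 cells, CEP, a dopaminergic head neuron, 739 CPM from 5 of 256 cells, and PVQ 169 CPM from 1 of 322 cells. The exception was AIM, an interneuron, with 77 UMIs spread over 60 of 1038 cells and at most 3 in a cell. In AIM the pan-neuronal libraries stood apart, with gcy-33 at 553 CPM (interval 338 to 855) and 505 CPM (352 to 703) in replicates 1 and 2, against 49.1 CPM (24.5 to 87.8) in the eat-4 library and 27.1 CPM (13.0 to 49.9) in the unc-86 library. AIM cells held 20 of the 41 and 35 of the 61 gcy-33 UMIs of other neurons in pan-neuronal replicates 1 and 2. Before thinning, 15 of 127 and 25 of 120 AIM cells of pan-neuronal replicates 1 and 2 had a UMI. In the eat-4 library 11 of 390 had one, and in the unc-86 library 8 of 316. Thinning to 500 UMIs kept 659 of the 1038 AIM cells, with a share of 3.95%, beside 3.85% in AFD. The 127 cells of pan-neuronal replicate 1 held 36137 UMIs, so many of them were left out of that share. gcy-32 and gcy-37 had 1 and 5 further detected classes, all with under 5% of cells. PHC, with gcy-37 at 152 CPM in 8 of 52 cells, had 9 UMIs and so fell just short of the threshold.

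Other genes of gas sensing were split between the same neurons. In BAG against URX, AQR and PQR, 10 of 19 pathway genes could be tested, of which 1 was higher and 7 lower in BAG, with a median log2 fold change of -1.17 against -0.12 for all genes. Of all genes tested there 29.2% were higher and 30.2% lower. gcy-9, a receptor guanylyl cyclase needed for carbon dioxide sensing in BAG, was higher in BAG by 9.81 ± 0.47 on the log2 scale (SE). Lower in BAG were gcy-25, a receptor guanylyl cyclase (-6.05), npr-1, a neuropeptide receptor of the oxygen circuit (-5.91), glb-5, a globin that tunes the oxygen response (-2.56), the phosphodiesterases pde-1 (-2.01), pde-4 (-1.21) and pde-2 (-0.78), and cng-1, a subunit of a cyclic nucleotide-gated channel (-1.13). The kinase egl-4 did not pass (-0.12, adjusted p = 0.853 in edgeR's quasi-likelihood test). gcy-9 had enough counts for the filter only through BAG, and gcy-25 and npr-1 only through URX, AQR and PQR. Their directions were set by the filter, so the counts of pathway genes are no result beside the share of all genes. The channel genes tax-2 and tax-4 were too low to test there, tax-4 at 16.7 CPM in BAG, 27.5 in URX, 181 in AQR and 138 in PQR.

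Against other neurons, 3 of 11 pathway genes tested were higher in BAG (cng-1, pde-1 and gcy-9) and 2 lower (pde-3 and pde-4), with a median of -0.11 against -0.88 for all genes, of which 7.85% were higher and 29.3% lower. In URX, AQR and PQR 8 of 13 were higher than in other neurons (tax-2, tax-4, cng-1, pde-1, pde-2, pde-5, glb-5 and npr-1) and 2 lower (pde-4 and pkg-2), with a median of 1.83 against -0.32 for all genes, of which 9.02% were higher and 21% lower. cng-1 rose in both, with log2 fold changes over other neurons of 6.24 ± 0.54 in BAG and 7.68 ± 0.51 in URX, AQR and PQR (SE). gcy-9 and cng-1 had enough counts for the filter only through BAG, and cng-1 and glb-5 only through URX, AQR and PQR. These directions were set by the filter. In the further gcy-35 neurons 1 of 7 was higher (pde-2) and 4 lower (pde-1, pde-3, egl-4 and pkg-2), with a median of -1.29 against -0.37 for all genes, of which 4.45% were higher and 23.2% lower. tax-4 and cng-1 had no UMI in SDQ, ALN, AVM and PVM. PHC held cng-1 at 118 CPM and no tax-2 or tax-4.

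Of 8 regulators of the fates of these neurons, 4 were tested between BAG and URX, AQR and PQR, and 1 was higher and 3 lower in BAG, with a median log2 fold change of -3.32. Of all genes tested there 29.2% were higher and 30.2% lower, with a median of -0.12. ets-5, a factor needed for BAG fate, was higher by 9.78 ± 0.49 on the log2 scale. ahr-1, the aryl hydrocarbon receptor known to regulate these cyclases in URX, AQR and PQR, was lower by 5.79 (log2 fold change -5.79 ± 0.53), unc-86, a POU factor, was at -5.31 ± 0.53 and egl-13, a Sox factor, at -1.32 ± 0.34. ets-5 had enough counts for the filter only through BAG, and ahr-1 only through URX, AQR and PQR. The directions of ets-5 and ahr-1 were therefore set by the filter. Against other neurons, 2 were higher in BAG (ets-5 and egl-13) and 2 lower (unc-86 and mec-3) of 4 tested, with 7.85% higher and 29.3% lower among all genes. In URX, AQR and PQR 3 of 5 were higher (egl-13, ahr-1 and unc-86) and mec-3 lower, with 9.02% higher and 21% lower among all genes. In the further gcy-35 neurons 4 of 5 were higher (ahr-1, unc-86, egl-46 and mec-3) and egl-13 lower, with 4.45% higher and 23.2% lower among all genes. The set was not uniform in mec-3 and egl-46. They were at 6057 and 1728 CPM in AVM and at 5380 and 2085 CPM in PVM. In SDQ, ALN and BDU both were at or under 60.8 CPM, against 80.7 and 62.3 CPM in other neurons.

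Among the 8 peptide genes, 3 of 6 tested were higher in BAG than in URX, AQR and PQR (flp-17, flp-10 and nlp-1) and 2 lower (flp-8 and flp-5), with a median log2 fold change of 2.22. Among all genes tested there 29.2% were higher and 30.2% lower, with a median of -0.12. flp-17 had enough counts for the filter only through BAG, so its direction was set by the filter. Against other neurons 2 of 8 were higher in BAG and 3 lower, beside 7.85% and 29.3% of all genes. In URX, AQR and PQR 2 of 7 were higher and 4 lower, beside 9.02% and 21% of all genes. In the further gcy-35 neurons, pooled as a set, 7 of 7 were lower, beside 23.2% of all genes. Single classes of the set differed. flp-8 was at 665 CPM in AVM and 1593 CPM in PVM, against 294 CPM in other neurons. In SDQ, ALN and BDU flp-8 was at or under 9.06 CPM. nlp-1 was at 580 CPM in BDU, against 296 CPM in other neurons, and at or under 104 CPM in SDQ, ALN, AVM and PVM.

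The genes most like each member over the 125 neuron classes were found by Pearson's r of log2(CPM + 10), a description across classes that share libraries and depth. aexr-2 was first for gcy-32 (r = 0.94), gcy-33 (0.82), gcy-36 (0.82) and gcy-37 (0.89), with gcy-25 second for each, at 0.92, 0.81, 0.81 and 0.87. The third was F49E12.10 for gcy-32 (0.87) and gcy-37 (0.83), F58B4.2 for gcy-33 (0.78) and cng-1 for gcy-36 (0.77). F58B4.2 had the graded order of gcy-33, at 215 CPM in BAG, 986 in URX, 2085 in AQR and 4047 in PQR. gcy-34 was led by F30A10.15 (0.70), ncx-5 (0.68) and aexr-2 (0.67). gcy-35 was led by ahr-1 (0.78), F58F9.10 (0.74) and gcy-25 (0.67). ahr-1 was also found at 877 CPM in SDQ, 492 CPM in ALN, 319 CPM in AVM and in PVM and 267 CPM in BDU. gcy-31 was led by egg-5 (0.66), glr-7 (0.63) and R03D7.5 (0.62). Between members, r was 0.88 for gcy-32 with gcy-37 and for gcy-36 with gcy-37, 0.84 for gcy-33 with gcy-37, 0.67 for gcy-35 with gcy-36 and 0.15 for gcy-31 with gcy-33. The order depended on the constant added. With log2(CPM + 1), aexr-2 stayed first for gcy-32 (0.80) and gcy-37 (0.75), and F30A10.15 for gcy-34 (0.55). The first gene became F34D10.6 for gcy-33 (0.74), gcy-25 for gcy-36 (0.72) and glr-7 for gcy-31 (0.68). For gcy-35 it became F58F9.10 (0.70), ahead of ahr-1 (0.69).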

How the data were processed

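The authors deposited UMI counts per gene and cell, with a table that gives the library, the tissue and the class of every cell. Cell Ranger 6.0.0 is named in the submitters' processing notes. The genome build, the filters on cells, the treatment of doublets and any background correction were not found in the labels or file headers. Counts were therefore used as deposited, cells were taken as annotated, no doublet caller was run and no coordinates are printed. Gene strand and overlap came from the WBcel235 annotation, which held 18545 of the 18570 gene identifiers. Of 87588685 stored entries 3505163 held the value 0.

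Each cell went to the library its annotation names. For the youngest P-lineage library the name in the table gives other hours than the labels, and it was assigned because no other library remained. UMIs were summed per library and class, or per library and side where a side had at least 10 cells in that library, and tested with edgeR 4.0.16 (limma 3.58.1, R 4.3.3), using TMM, filterByExpr, the quasi-likelihood test, library as a block and a Benjamini-Hochberg adjusted p under 0.05 over all genes tested. Standard errors were taken as the log2 fold change divided by the root of its F statistic. Other neurons were all neuron classes outside the 4, less 1 class with a question mark (274 cells). The self-test ran on simulated counts. Poisson and Clopper-Pearson intervals are at 95%. A count of 0 allows 3 counts for a level. Alternatives were DESeq2 1.42.0, its size factors, no filter, other minimum numbers of cells, no block, cells of at least 500 UMIs and each library left out in turn. Python 3.11.15, numpy 2.4.6, scipy 1.17.1, pandas 2.3.3 and matplotlib 3.10.9 were used.

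The genes, lists and rules were chosen with earlier results of these data known. Named were the 7 genes, the lists of pathway, fate and peptide genes, the marker lists, the 3 genes of highest likeness to each member with at least 50 UMIs in neurons, and the 5 genes of smallest p in each direction between BAG and URX, AQR and PQR. Most groups are 1 library, and nothing says how many cultures a library holds, so the p-values measure spread between libraries.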

Additional observations from a re-analysis of the deposited data

Results flagged for a closer look

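4 of 28 sets of library values checked held a library far from the others, by a check that flags about 1 set in 20 by chance, and all 4 concern the low counts of gcy-31. In BAG, pan-neuronal replicate 1 read 0 CPM of gcy-31, against 173 to 258 CPM in the other 5 libraries, and 0 UMIs there allow up to 324 CPM. In AQR the sensory library read 2.80 CPM, against 0 in the other 5. In PQR the command interneuron library read 29.2 CPM, against 0 to 10.2 CPM in the other 5. In URX, AQR and PQR together the command interneuron library read 24.1 CPM on 1 UMI, against 0 to 4.98 CPM in the other 8.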

How the results depend on the processing

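All 222 values of a member under an alternative kept their direction, and 220 kept their side of the threshold. The exceptions were gcy-37 in BAG against other neurons with DESeq2 size factors (log2 fold change 1.38, adjusted p 0.0501) and without the library block (2.24, adjusted p 0.0709). gcy-33 in BAG against URX, AQR and PQR ran from -3.43 to -2.64 over 13 alternatives. The counts of genes past the threshold moved more, and the cause was not tested beyond the number of genes or samples each setting leaves. Without the filter on low counts the calls were 1648 for BAG against URX, AQR and PQR (376 higher and 389 lower in the main analysis), 3144 for BAG against other neurons (1792), 5130 for URX, AQR and PQR against other neurons (1799) and 4246 for the further gcy-35 neurons (1515). DESeq2 called 2818 for URX, AQR and PQR against other neurons, and a minimum of 5 cells called 355 for BAG against URX, AQR and PQR. With 1 library left out that last count ran from 456 (without the eat-4 library) to 1128, and was 463 without the sensory library. At 20 CPM and 5 UMIs, in place of 50 CPM and 10 UMIs, the classes in which a gene was detected numbered 3 for gcy-31, 11 for gcy-32, 22 for gcy-34, 24 for gcy-35, 19 for gcy-36 and 19 for gcy-37 (1, 4, 6, 14, 11 and 9 in the main analysis). The main fits compare the sides within each library through the library block. No paired analysis was possible by replicate number because the numbers name libraries within a group and do not link one group with another. Depth limits gcy-31 most, with 114 UMIs in BAG, and PHC, TX.ppp and TX.pppa each rest on 1 library.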
